A study of Mus musculus with 6 samples.

Results

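The genes described here are 8 members of the Jumonji family of histone lysine demethylases: Kdm2a, Kdm2b, Kdm3a, Kdm3b, Kdm4a, Kdm4b, Kdm4c and Kdm5b. They were taken by symbol from the 50686 gene identifiers in the count tables, and all 8 passed the filter on low counts. Their mRNA levels were measured by RNA sequencing in embryoid bodies, small aggregates grown from induced pluripotent stem cells (iPSCs) that had been reprogrammed from mouse gingival fibroblasts. The iPSCs were grown on SNL feeder cells, which were removed by selective trypsinization before the aggregates were made. Both groups were treated with retinoic acid while the embryoid bodies formed and were then plated on gelatin. One group of 3 samples received intermittent compressive force (ICF) of 1.5 g per square centimetre at 0.23 Hz for 24 h in serum-free medium, and the 3 control samples received no force. Donors 1 to 3 are named in the labels of both groups, and the donor number is called the replicate here. The methods speak of independent experiments rather than donors and do not say whether more than 1 iPSC line was used, so the p-values measure the spread between these samples. Embryoid bodies hold mixed cells, and in such bulk samples fewer cells of a type and less RNA per cell cannot be told apart.

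Jumonji demethylases remove methyl groups from lysines of histone tails with an iron atom, molecular oxygen and 2-oxoglutarate, a metabolite of the citric acid cycle. The KDM4 enzymes act on trimethylated and dimethylated H3K9 and H3K36, the KDM3 enzymes on dimethylated and monomethylated H3K9, KDM5 enzymes on methylated H3K4, and the KDM2 enzymes mainly on dimethylated H3K36. H3K9 methylation marks silent chromatin, H3K4 trimethylation marks active promoters, and pluripotent cells are known to depend on several of these enzymes. Kdm3a, Kdm4b and Kdm4c are also known as target genes of HIF-1, the transcription factor that responds to low oxygen.

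Reads counted on genes numbered from 28711166 to 34194413 per sample. Levels are given as CPM, the counts of a gene scaled to a common library total, after TMM scaling, a correction for library size and composition. In ICF replicate 3, 89.0% of counts above 0 were multiples of 4. In the other 5 samples this share was 20.3% to 21.5%. ICF replicate 3 also had counts for fewer genes (20802 against 24340 to 24889). Where leaving it out changes a call given here, the value without it stands beside that call. Pou5f1, which encodes the pluripotency factor Oct4, stood at 841 ± 57.2 CPM (SD, n = 3) in the control and 817 ± 70.4 with ICF.

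With ICF, Kdm4b fell by 46.1%, Kdm4c fell by 28.2%, Kdm3a fell by 22.7% and Kdm5b fell by 18.04% of the control mean. These 4 of the 8 genes passed an adjusted p of 0.05 as lower in edgeR's quasi-likelihood test, where 4.38% of all 16729 genes tested were called lower and 3.47% higher. None of the 8 was called higher with edgeR or DESeq2, and none was higher at an unadjusted p under 0.05. Over all 16729 genes tested, 4277 were at an unadjusted p under 0.05 in either direction, and DESeq2 called 943 higher and 1109 lower. The counts of other lists given below are to be read beside these. The other 4 of the 8 genes, Kdm2a, Kdm2b, Kdm3b and Kdm4a, did not pass, with log2 fold changes between -0.09 and -0.04. The median log2 fold change was -0.19 over the 8 genes and 0.003 over all genes tested. Without ICF replicate 3, Kdm4b, Kdm4c and Kdm3a were called lower and Kdm5b was not (adjusted p = 0.0525, edgeR), and without replicate 3 of both groups all 4 were called. Without control replicate 1 or 2 or ICF replicate 1 or 2, 1 of the 8 genes, Kdm4b, was called lower. With the replicate number as a block the same 4 genes were called lower, and the share of all genes called lower was 15.3% and that called higher 14.6%. The groups did not overlap in 5 of the 8 genes, all lower with ICF, against 15.7% of all genes tested that were lower without overlap and 15.6% that were higher. An exact permutation test of 3 samples against 3 cannot give a two-sided p below 0.1, so the calls rest on the edgeR fit across all genes.

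**Figure D1:**
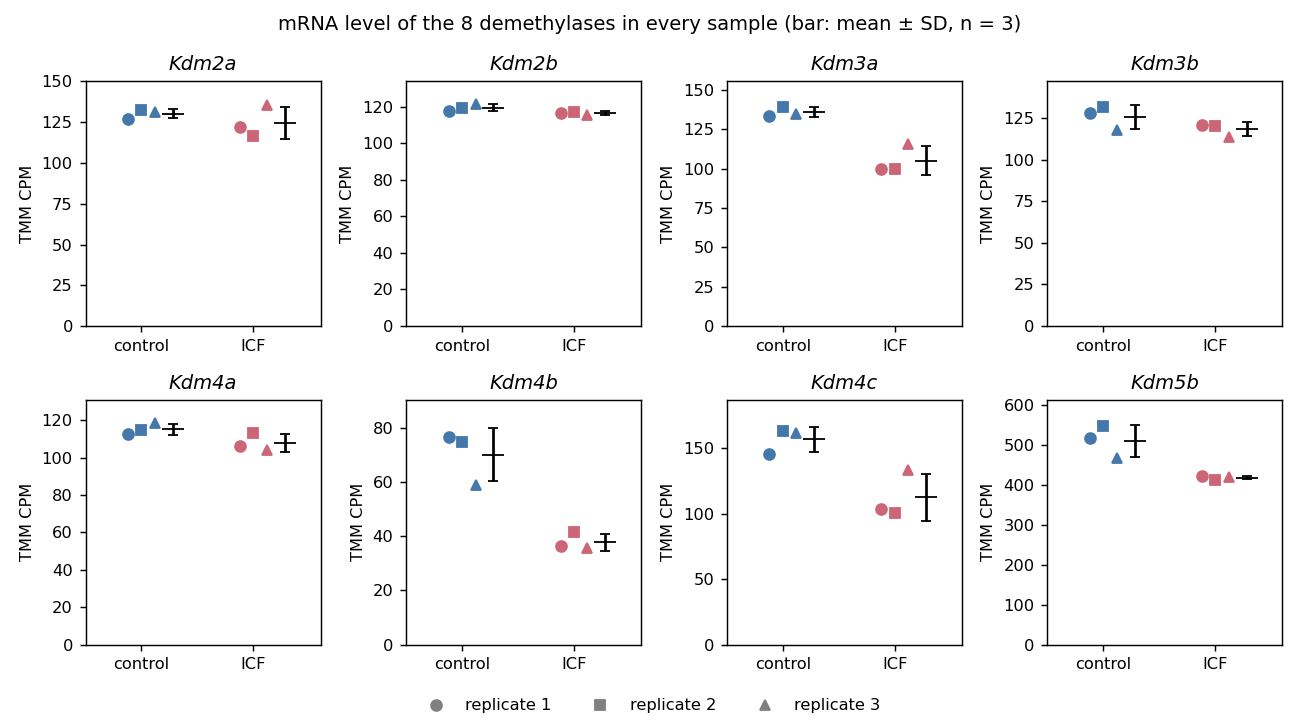
TMM CPM (vertical axes, from 0) of the 8 demethylase genes in the 3 control (blue) and 3 ICF (red) samples, with marker shapes for the replicate and black bars for the mean ± SD. The ICF samples of Kdm4b lie between 35.7 and 41.4 CPM, below all control samples, while the groups of Kdm2a, Kdm3b and Kdm4a overlap.

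Kdm4b, a demethylase of H3K9 and H3K36, changed most among the 8 genes. In the GRCm38 build it occupies positions 56326062 to 56402870 of chromosome 17, on the forward strand. Control replicates 1 to 3 had 76.7, 74.8 and 58.8 CPM, and ICF replicates 1 to 3 had 36.3, 41.4 and 35.7 CPM. Every ICF sample was below every control sample, and control replicate 3 was the lowest of its group. The means were 70.1 ± 9.85 CPM (SD, n = 3) in the control and 37.8 ± 3.17 with ICF. The log2 fold change was -0.89 (SE 0.14, adjusted p = 0.00285, edgeR's quasi-likelihood test). With each sample left out in turn it stayed between -1.004 and -0.82, and Kdm4b was called lower in all 6 tests.

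Kdm4c encodes a closely related enzyme of the same substrates and lies on chromosome 4 from 74242497 to 74405860. Its level was 145, 163 and 162 CPM in control replicates 1 to 3 and 104, 101 and 133 CPM in ICF replicates 1 to 3. The groups did not overlap, and ICF replicate 3 lay nearest to the control. The log2 fold change was -0.48 (SE 0.14, adjusted p = 0.0318, edgeR), from a mean of 157 ± 9.89 CPM (SD, n = 3) to 112.5 ± 17.9. Without ICF replicate 3 the fall was larger, at -0.61 (adjusted p = 0.00187), and this was the only 1 of the 6 tests leaving out a sample that passed. Without control replicate 1, 2 or 3 or without ICF replicate 1 or 2 the adjusted p was 0.0524 to 0.138.

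Kdm4a, the third KDM4 gene measured, lies on chromosome 4 from 118136957 to 118180043 on the reverse strand. Its samples read 113, 115 and 119 CPM in the control and 106.5, 113 and 104 CPM with ICF. The ranges overlapped, and the log2 fold change of -0.09 (SE 0.04, adjusted p = 0.364, edgeR) did not pass. Per kilobase of exon, Kdm4b made up 26.1%, 24.2% and 19.9% of the summed KDM4 level (in RPKM, here CPM divided by the exon length in kilobases) in control replicates 1 to 3 and 17.0%, 18.7% and 15.1% in ICF replicates 1 to 3. Kdm4a made up 31.5% to 34.0% in the control and 37.4% to 43.2% with ICF. The summed KDM4 level was 61.2 ± 1.72 RPKM (SD, n = 3) in the control and 45.7 ± 2.29 with ICF.

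Kdm3a, an H3K9 demethylase also known as Jmjd1a, lies on chromosome 6 from 71588972 to 71632990 on the reverse strand. Control replicates 1 to 3 had 134, 139 and 135 CPM, and ICF replicates 1 to 3 had 100.05, 99.8 and 116 CPM. All ICF samples were below all control samples, with ICF replicate 3 again the nearest to the control. The log2 fold change was -0.37 (SE 0.07, adjusted p = 0.0184, edgeR), from 136 ± 3.11 CPM (SD, n = 3) to 105 ± 9.12. Kdm3a kept its call when replicate 3 of either group was left out and lost it without replicate 1 or 2 of either group, where the adjusted p was at most 0.101 (edgeR).

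Kdm3b, the paralogue of Kdm3a with the same substrate, lies on chromosome 18 from 34777047 to 34838660. Its levels were 128, 131 and 118 CPM in the control and 121, 121 and 114 CPM with ICF. These ranges overlapped, and its log2 fold change was -0.09 (SE 0.06, adjusted p = 0.432, edgeR). An opposite-strand noncoding gene, Gm26538, covers 24.6% of the exon bases of Kdm3b, but it had at most 1 count in any sample.

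Both KDM2 genes encode proteins that bind unmethylated CpG islands through a zinc finger, and Kdm2b brings a variant Polycomb repressive complex (PRC1.1) to them. Kdm2a, on chromosome 19 from 4314419 to 4398285, had 127, 132 and 132 CPM in the control and 122, 117 and 136 CPM with ICF. The highest and the lowest of these 6 values were both ICF samples. Kdm2b, on chromosome 5 from 122870665 to 122989823, had 118, 119 and 121 CPM in the control and 116, 117 and 115 CPM with ICF. Its ICF samples all lay below its control samples, but the means of 119 ± 1.89 and 116 ± 0.997 CPM (SD, n = 3) differed by 2.61% of the control. The log2 fold changes were -0.06 (SE 0.07) for Kdm2a and -0.04 (SE 0.01) for Kdm2b, with adjusted p-values of 0.603 and 0.696 in the edgeR test. When the longest Kdm2b transcript was divided into every possible read of 75 bases, 22.4% of them also occurred in other genes, so its count is uncertain. The overlapping opposite-strand gene Rnf34 held 10.8% of all possible reads, Gm12397 held 10.6% on the same strand, and Gm44574 held 0.999% on the same strand. The paper describes the library as strand-specific, but whether the counting used the strand is not given. No such shared reads were found for the other 7 genes.

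Kdm5b, which removes methyl groups from H3K4 and is known for its high expression in embryonic stem cells, had the highest mean level of the 8 genes. It lies on chromosome 1 from 134560171 to 134635285. Control replicates 1 to 3 had 517, 547 and 466 CPM, and ICF replicates 1 to 3 had 421, 413 and 419.9 CPM. The ICF samples lay close together and below all controls, among which replicate 3 was the lowest. The log2 fold change was -0.29 (SE 0.07, adjusted p = 0.0391, edgeR), from 510.2 ± 41.0 CPM (SD, n = 3) to 418 ± 4.25. When control replicate 3 was left out, the change was -0.35 (adjusted p = 0.0117), and when any of the other 5 samples was left out the adjusted p was 0.0525 to 0.182 (edgeR).

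Promoter sequence is shown for 3 genes that fell, to place the core of the hypoxia response element, the motif bound by HIF-1, before their starts. The cores searched were ACGTG and GCGTG on both strands, and capitals mark each match (CACGT or CACGC where the match is on the other strand). The RefSeq promoter windows of GRCm38.p6 reach from 250 bases before to 50 bases after a start, and 5 of the 8 genes had at least 1. Kdm2a, Kdm3b and Kdm4b had none. Of all 32851 windows in the table, 19.6% held ACGTG, 32.4% held GCGTG and 43.8% held either core. Of the 11 windows of these genes, 7 held a core. These were all 4 windows of Kdm2b, which did not pass the test and of which a pair overlap almost wholly, 1 of 3 of Kdm3a, 1 of 2 of Kdm4c and the single window of Kdm5b, while the single window of Kdm4a held none. The sequences printed are the parts before the start that lie in no annotated exon of the gene.
Kdm5b, chr1:134559928-134560170, forward strand: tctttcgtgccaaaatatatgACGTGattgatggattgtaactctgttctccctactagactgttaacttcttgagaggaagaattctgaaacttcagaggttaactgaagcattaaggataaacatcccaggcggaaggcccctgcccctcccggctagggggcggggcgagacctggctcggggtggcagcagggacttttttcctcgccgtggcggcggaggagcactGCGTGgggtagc
Kdm4c, inner start, chr4:74251629-74251878, forward strand: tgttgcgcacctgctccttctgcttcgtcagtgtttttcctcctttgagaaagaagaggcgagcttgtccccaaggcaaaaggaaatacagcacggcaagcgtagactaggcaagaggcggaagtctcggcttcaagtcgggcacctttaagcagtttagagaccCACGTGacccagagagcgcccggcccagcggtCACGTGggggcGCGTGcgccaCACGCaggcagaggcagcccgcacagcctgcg
Kdm4c, outer start, chr4:74242247-74242496, forward strand: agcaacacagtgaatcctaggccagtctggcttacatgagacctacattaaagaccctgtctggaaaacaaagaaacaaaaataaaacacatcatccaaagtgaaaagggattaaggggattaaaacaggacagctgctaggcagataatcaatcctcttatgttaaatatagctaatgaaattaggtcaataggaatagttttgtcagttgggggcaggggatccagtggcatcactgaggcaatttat
Kdm3a, outer start, chr6:71632991-71633167, reverse strand: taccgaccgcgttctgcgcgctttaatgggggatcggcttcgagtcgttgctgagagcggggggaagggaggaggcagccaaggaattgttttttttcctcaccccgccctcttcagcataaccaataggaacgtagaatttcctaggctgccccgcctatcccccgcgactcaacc
The Kdm5b sequence held 1 ACGTG and 1 GCGTG. The stretch before the inner start of Kdm4c held 6 matches, among them 2 copies of CACGTG, in which ACGTG is read on both strands and which is also the E-box bound by other factors. No core was found before the outer start of Kdm4c. The single match in the Kdm3a windows lay outside the stretch printed. A match describes the letters only, and binding was not measured.

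The ratio of paralogues within a sample does not depend on the scaling between samples. The log2 ratio of Kdm4b to Kdm4a counts was -0.55, -0.62 and -1.01 in control replicates 1 to 3 and -1.55, -1.45 and -1.55 in ICF replicates 1 to 3. The difference, ICF minus control, was -0.79 (SE 0.15). The Kdm4c to Kdm4a ratio differed by -0.39 (SE 0.16) and the Kdm3a to Kdm3b ratio by -0.29 (SE 0.11). In these 3 ratios every ICF sample was below every control sample, and each had the smallest possible p of 0.1 in the exact two-sided permutation test (0.167 adjusted over the 5 ratios compared). The Kdm4b to Kdm4c ratio differed by -0.40 (SE 0.24) with overlapping groups (exact permutation p = 0.2, adjusted 0.25), and by -0.23 without ICF replicate 3. For Kdm2a to Kdm2b the difference was -0.03 (SE 0.07, exact permutation p = 0.8, adjusted 0.8), and without ICF replicate 3 it was -0.10. Within same-numbered pairs the difference was below 0 in all 3 pairs for each ratio but Kdm2a to Kdm2b, where it was above 0 in pair 3. For the Kdm4b to Kdm4c ratio the pairs differed by -0.59, -0.16 and -0.44. An exact sign-flip permutation test over 3 pairs cannot give a two-sided p below 0.25, which these 4 ratios had.

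**Figure D2:**
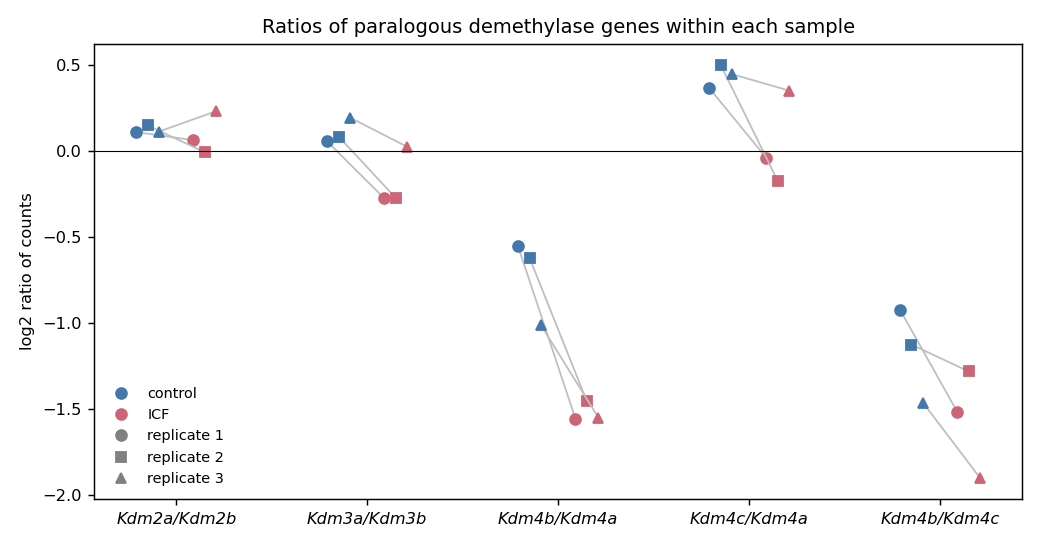
Log2 ratio of counts (vertical axis) for 5 pairs of paralogous genes, with control samples in blue, ICF samples in red, and grey lines joining samples of the same replicate number. The Kdm4b to Kdm4a ratio lies between -1.01 and -0.55 in the control and between -1.55 and -1.45 with ICF, while the Kdm2a to Kdm2b ratio overlapped.

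In level per kilobase of exon over all 6 samples, the order was Kdm5b (28.0 RPKM), Kdm4c (23.1), Kdm4a (19.3), Kdm3a (14.7), Kdm4b (11.0), Kdm2b (10.8), Kdm2a (8.83) and Kdm3b (8.66). The sample ranges of neighbours in this order overlapped except between Kdm4a and Kdm3a and between Kdm2b and Kdm2a. All 8 genes were above the middle of the distribution, with between 64.5% (Kdm3b) and 86.9% (Kdm5b) of all tested genes at a lower RPKM. By this measure Kdm4b, at 14.3 ± 2.01 RPKM (SD, n = 3) in the control, was above Kdm2b at 11.0 ± 0.17. With ICF it was below Kdm2b, at 7.72 ± 0.65 against 10.7 ± 0.09. The merged exons of Kdm2b hold 10869 bases against 5180 in its longest transcript, and those of Kdm4b 4895 against 4577. The order of the genes and this crossing therefore depend on the length used, and no other length was tried. The summed level of the 8 genes was 137.5 ± 4.68 RPKM (SD, n = 3) in the control and 111.5 ± 3.63 with ICF.

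Among 14 other genes of Jumonji demethylases, 13 were tested. In edgeR's test 1 of these was called lower and 1 higher, and their median log2 fold change was 0.03. Kdm7a, whose enzyme removes methyl groups from H3K9 and H3K27, fell from 24.6 ± 1.45 to 17.2 ± 2.46 CPM (SD, n = 3), or by 0.52 on the log2 scale (SE 0.12, adjusted p = 0.0279, edgeR). It lost the call without replicate 1 or 2 of either group (adjusted p 0.0848 to 0.107). Hr, which encodes the nuclear receptor corepressor Hairless, rose from 4.09 ± 0.49 to 7.28 ± 0.86 CPM (SD, n = 3), or by 0.83 on the log2 scale (SE 0.13, adjusted p = 0.0138, edgeR). Its call was lost without control replicate 1 (adjusted p = 0.0786) or control replicate 2 (adjusted p = 0.0506). Kdm6b, an H3K27 demethylase, had a log2 fold change of -0.36 (SE 0.22) and did not pass (adjusted p = 0.188, edgeR), but passed with the replicate block (adjusted p = 1e-05). With that block 2 of these genes were called lower and 3 higher. Kdm4d, the remaining KDM4 gene of the list, had 4, 1 and 3 counts in the control and none with ICF, too few to test. Among 9 Jumonji proteins that are not histone demethylases or whose activity is disputed, none passed in edgeR or DESeq2. At an unadjusted p under 0.05, 4 of them were higher and 0 lower, and 4 were called higher with the block. Over all genes tested, 4277 of 16729 were at an unadjusted p under 0.05 in either direction, and 14.6% were called higher with the block. Without ICF replicate 3, 1 of them, Jmjd4, was called higher (log2 fold change 0.28, adjusted p = 0.0492, edgeR). Hif1an, the asparagine hydroxylase that restrains HIF, was one of this group, with a log2 fold change of 0.20 (SE 0.06, adjusted p = 0.102, edgeR). Hif1an passed with the replicate block in edgeR (adjusted p = 0.00475).

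**Figure D3:**
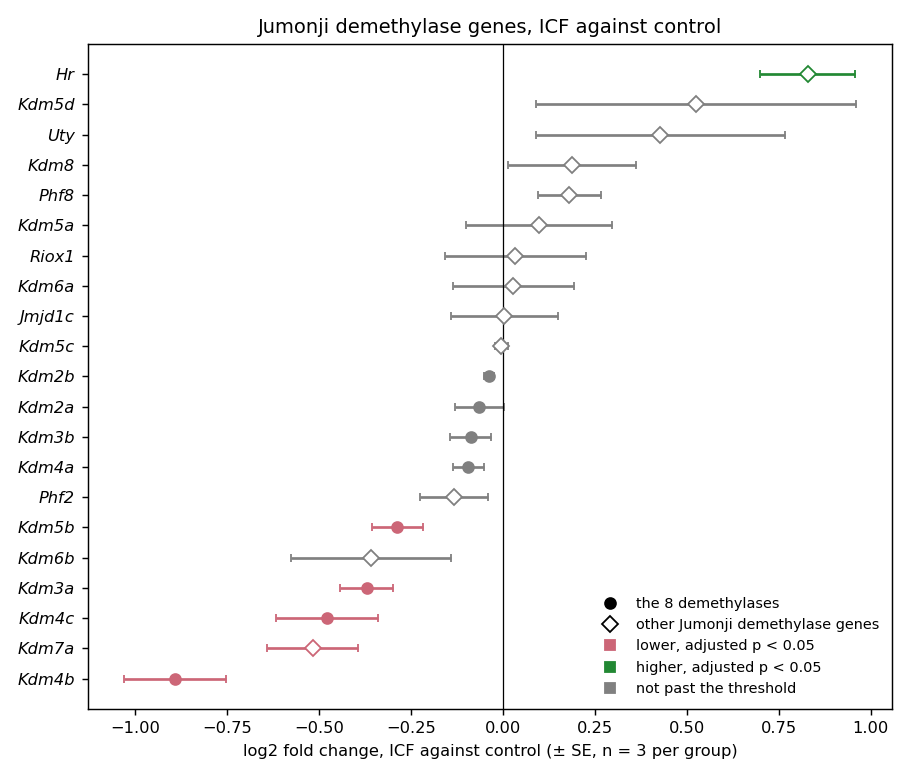
Log2 fold change, ICF against control, with its SE (horizontal axis) for the 8 demethylases (filled circles) and 13 other Jumonji demethylase genes (open diamonds), in red or green where the adjusted p was under 0.05. Kdm4b at -0.89 had the lowest value, and Hr at 0.83 was the only gene of the plot called higher.

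Genes listed as methyltransferases for the marks removed by these demethylases were described in the same way. Of 8 H3K9 methyltransferase genes, 1 was called lower and 0 higher in edgeR and in DESeq2, with 1 higher at an unadjusted p under 0.05. With the block 1 was called lower and 1, Setdb1, higher (adjusted p = 0.0247). The called gene was Ehmt2, which encodes the dimethyltransferase G9a, with a log2 fold change of -0.29 (SE 0.07, adjusted p = 0.0431, edgeR), which lost its call without control replicate 1 or 2 or ICF replicate 1 or 3 (adjusted p 0.071 to 0.175). The 8 genes listed here for H3K36 were Nsd1, Nsd2, Nsd3, Setd2, Ash1l, Smyd2, Setd3 and Setmar, and whether each writes this mark was not tested. Of these, 0 passed in either direction with edgeR, at an unadjusted p under 0.05, or with DESeq2, and their log2 fold changes ran from -0.05 to 0.14. Of 9 H3K4 methyltransferase genes, 1 was called higher, Setd1b, with a log2 fold change of 0.32 (SE 0.06, adjusted p = 0.0308, edgeR), and 0 lower by either tool or at an unadjusted p under 0.05. Setd1b lost its call without replicate 1 or 2 of either group. At an unadjusted p under 0.05 in edgeR's test 2 H3K4 genes, Setd1b and Kmt2d, were higher. With the block 4 H3K4 genes were called higher (Kmt2a, Kmt2d, Setd1b and Setd7) and 1 lower (Kmt2c). Among 9 partners of Kdm2b in PRC1.1, 0 passed with edgeR or DESeq2, 1 was lower at an unadjusted p under 0.05, and with the block 2 were called lower and 1 higher. Kdm1a, the flavin-dependent H3K4 demethylase, had a log2 fold change of -0.22 (SE 0.07). It did not pass with edgeR (adjusted p = 0.081) but passed with DESeq2 (adjusted p = 0.0361) and with the replicate block (adjusted p = 0.000663).

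Of 20 other genes known to be induced by low oxygen, 18 were called lower and 0 higher with edgeR (0 higher also with DESeq2 and at an unadjusted p under 0.05), with a median log2 fold change of -1.23. This list was chosen with earlier results of these data known, so its counts and median describe the chosen genes only. Bnip3, Ankrd37, Ldha, Adm and Slc2a1 were already among the top downregulated genes that the paper listed. Adm, Ankrd37 and Egln3 fell most, by 4.08, 2.98 and 2.74 on the log2 scale. The fall of Kdm4b, at -0.89, was smaller than that median, as were those of Kdm4c, Kdm3a and Kdm5b. Without ICF replicate 3, 17 of the 20 were called lower, P4ha2 losing its call (adjusted p = 0.0712, edgeR), and over the 6 tests leaving out a sample the number was 14 to 19.

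Some cell type markers also differed with ICF, but most of those tested were not called in edgeR's test. Of 7 tested markers of fibroblasts, feeder cells or mesenchyme, 2 were called higher, Col1a1 and Col3a1, and the summed level of the list was 41.0 to 68.2 CPM in the control and 69.3 to 92.4 CPM with ICF. The rise of this sum lay mainly in the collagen genes Col1a1, Col1a2 and Col3a1 (log2 fold changes 0.75, 0.61 and 0.73). Dcn, Thy1, Pdgfrb and the sparsely counted Postn had log2 fold changes of -0.12, 0.07, 0.06 and 0.49 and did not pass. Of 8 pluripotency markers 1, Tdgf1, was called lower, and their sum was 3284 to 3920 CPM in the control and 2951 to 3292 CPM with ICF. These ranges overlapped, and the largest fall within the sum was that of Tdgf1, from 722 ± 88.9 to 411 ± 36.5 CPM (SD, n = 3). Pou5f1, Sox2 and Esrrb had log2 fold changes of -0.04, 0.02 and -0.01. For Nanog, Zfp42, Klf4 and Dppa5a they were -0.12, -0.14, -0.28 and -0.29, none past the threshold in edgeR's test. Among 4 tested cardiomyocyte markers Tnnt2 was called higher, from 2.13 ± 0.64 to 6.47 ± 0.71 CPM (SD, n = 3), and the other 3, Actn2, Myh6 and Nkx2-5, had log2 fold changes below 0 and did not pass. The summed level of this list, 5.17 to 6.71 CPM in the control and 8.72 to 9.94 CPM with ICF, was higher through Tnnt2 alone. Among 5 endoderm markers Sox17 was called lower, and the other 4 had log2 fold changes above 0. Of these, Gata6 (log2 fold change 0.19, SE 0.02) did not pass with edgeR (adjusted p = 0.0718) but passed with DESeq2 (adjusted p = 0.0336) and with the replicate block (adjusted p = 0.00615). The endoderm sum was 353 to 370.5 CPM in the control and 347 to 387 CPM with ICF. The call of Col3a1 was lost whichever sample was left out, that of Col1a1 without control replicate 1 or ICF replicate 1 or 2, and that of Sox17 without any sample but ICF replicate 2. Without ICF replicate 3 the adjusted p was 0.0696 for Col3a1 and 0.0705 for Sox17 (edgeR). No neuroectoderm (4 tested) or mesoderm (3 tested) marker passed in edgeR's test. At an unadjusted p under 0.05, 1 neuroectoderm marker was higher and 1 lower, and 1 mesoderm marker was lower. DESeq2 called 1 neuroectoderm marker higher and 0 mesoderm markers. With the replicate block more markers were called. These were 3 pluripotency markers lower (Klf4 and Dppa5a beside Tdgf1), 3 of the fibroblast list higher (Col1a2 beside Col1a1 and Col3a1), 1 neuroectoderm marker lower (Tubb3) and 1 higher (Nes), 2 mesoderm markers lower (Eomes and Tbx6), and in the endoderm list 1 lower and 1 higher. No marker was at 0 counts in all samples. The part of these cell types in the levels of the demethylase genes was not tested.

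**Figure D4:**
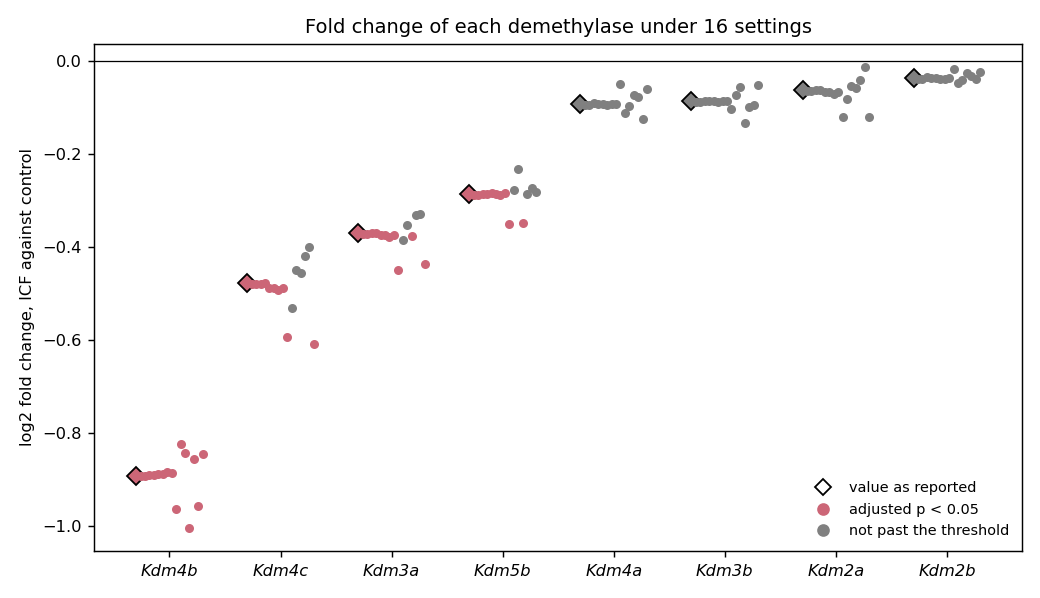
Log2 fold change of each demethylase gene, ICF against control (vertical axis), in the analysis as reported (diamonds) and in 15 alternative analyses (circles), red where the adjusted p was under 0.05 and grey where it was not. All values lie below 0, and Kdm4b was past the threshold in every analysis shown.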

How the data were processed

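RNA sequencing covered 3 ICF and 3 control samples. Trimmomatic, HISAT2 and HTSeq were used by the authors for read filtering, mapping and counting, and the authors deposited raw counts for each gene. The paper describes the library as strand-specific. Versions of these tools and the strand setting of the counting are not given in the sources used here. The submitters' processing notes list the builds hg38 and GRCm38 with no role. Rows of the count files that name no gene held 38.1% to 40.3% of each file's total and were left out.

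Genes were named through GENCODE M21 of GRCm38, which named 50462 of the 50686 identifiers. The deposited counts were tested with edgeR 4.0.16 in R 4.3.3 (quasi-likelihood test, TMM, filterByExpr) with Benjamini-Hochberg adjustment over 16729 genes and a threshold of 0.05. The SE of a log2 fold change comes from the SDs of log2(CPM + 0.5) per group. RPKM used the merged exon length. Ratios were compared by exact permutation tests in SciPy 1.17.1. The edgeR procedure was also run on simulated counts with 200 changed genes, a single dispersion (spread between replicates) of 0.01 and no replicate effect. That run could not test how the unusual counts of ICF replicate 3 bear on the calls. Library totals were 28711166 to 34194413 counts, and the members had mean counts of 1656 to 14351.

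Same-numbered samples carry the same donor number in the labels, so the replicate block is a paired analysis by label. Each gene's value minus the mean of its group was also compared between control and ICF samples. The correlation was 0.23, 0.26 and 0.5 for numbers 1 to 3, and -0.45 to 0.38 between different numbers. ICF replicate 2 was closer to control replicate 1 (0.38) than to control replicate 2 (0.26). ICF replicate 1 was no closer to control replicate 1 (0.23) than to control replicate 2 (0.26). These values set replicate 3 apart but do not separate pair 1 from pair 2. Alternatives were DESeq2 1.42.0, RLE scaling, filters of at least 1 count in any sample or at least 10 in every sample, the block with each tool, 3 treatments of replicate 3, and each sample left out. A sign-flip test of the ratios within pairs was added after seeing the data. Named genes were all members, the called genes with the largest change in each other list (at most 3), and the 3 genes nearest in profile to each of the 2 members that changed most. Other genes named with values were chosen after their values were seen. Members and lists were chosen with earlier results of these data known. Protein sequences were not used here.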

Additional observations from a re-analysis of the deposited data

How the results depend on the processing

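All 120 alternative values of the member fold changes (8 genes, 15 alternatives) were below 0. In the 9 alternatives that did not leave out a single sample, all 72 stayed on the side of the threshold they had in the analysis as reported, and with the replicate block the calls of the members did not change. When 1 sample was left out, 14 values lost the call, all of Kdm3a, Kdm4c or Kdm5b, and 1 to 3 members were called lower. Only Kdm4b was called without control replicate 1 or 2 or ICF replicate 1 or 2. Over all genes, 580 were called higher and 733 lower. The counts were 943 and 1109 with DESeq2, 2445 and 2561 with the replicate block, 1457 and 1662 with DESeq2 and the block, 2823 and 2876 with replicate 3 as a batch, and 2466 and 2627 with replicate 3 of both groups left out. Leaving out 1 sample gave 85 to 724 higher and 215 to 928 lower, the fewest without control replicate 2 and the most without control replicate 3. The cause was not tested, and tests on fewer samples also have less precision. For the other lists, the marker lists left out, 184 of 240 alternative counts were within 1.5 times the reported count. Most of these 184 were counts of 0 that stayed at 0, so this number says little about the lists with called genes. With the counts of ICF replicate 3 divided by 4 the same 4 members were called lower.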

Other observations

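A mean count of at least 100 was reached by 11925 genes. Among them, the profiles over the 6 samples nearest to that of Kdm4b, by the root mean square difference of centred log2 CPM, were those of Espn (0.033), Eno1 (0.042) and Chac1 (0.046). Espn encodes an actin-bundling protein, Eno1 the glycolytic enzyme enolase and Chac1 a glutathione-degrading enzyme. Eno1 has a near-identical copy, Eno1b, so its count is uncertain. Espn stood at 18.7, 17.95 and 13.9 CPM in control replicates 1 to 3 and 8.38, 10.3 and 8.15 CPM in ICF replicates 1 to 3. Nearest to Kdm4c were Sgo2a (0.052), a protector of centromeric cohesion, Skil (0.058), a repressor of TGF-β signaling, and Kdm7a (0.064). Kdm7a, itself a Jumonji demethylase gene, had 23.7, 23.8 and 26.3 CPM in the control and 16.7, 15.0 and 19.9 CPM with ICF. In both it and Kdm4c, ICF replicate 3 lay nearest to the control. Kdm7a was picked for the nearness of its profile, so this likeness follows from the choice.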
